A study of Bos taurus with 8 samples.

Results

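The WNT ligands, their receptors and the secreted proteins that oppose or enhance them were examined in bovine embryonic stem cells (bESCs) moved from feeder cells to feeder-free culture in low oxygen. The genes were chosen by symbol alone: the WNT, FZD, SFRP, DKK and RSPO families, ROR1, ROR2, LRP5, LRP6, WIF1, PORCN and WLS. This rule matched 48 of the 32637 genes with values, 19 of them ligands, 14 receptors, 9 secreted antagonists, 4 R-spondins and 2 genes of ligand secretion. RNA of 4 independent lines, named A, C, D and E and all of genotype XX, was sequenced in both conditions, which gave 4 libraries on MEF and 4 in feeder-free culture. MEF stands for irradiated mouse embryonic fibroblasts, which feed the bESCs from below, and the feeder-free cells grew on vitronectin. All libraries came from cultures in 5% O2, at passages 15 to 17 on MEF and 20 to 22 in feeder-free conditions. Passage, matrix and feeder cells thus changed together and cannot be told apart. The study's methods also describe a removal of feeder reads meant for the cells on MEF alone. Sample titles give the same medium code for both conditions, whereas the study's methods describe Activin A as an addition for feeder-free culture. The methods also list FGF2 and IWR-1 in the base medium. IWR-1 blocks tankyrase and thereby steadies AXIN, so β-catenin signalling was under the same inhibitor in both conditions.

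WNT proteins are secreted lipid-bearing ligands. PORCN attaches the lipid and WLS carries the ligand to the cell surface, where it binds a Frizzled (FZD) receptor. With the co-receptors LRP5 or LRP6 it stabilises β-catenin, which acts with TCF and LEF factors on target genes. With ROR1 or ROR2 it acts without β-catenin on cell polarity and movement, a route best known for WNT5A and WNT5B. SFRPs and WIF1 bind ligands in the medium, DKK1, DKK2 and DKK4 block LRP5 and LRP6, and R-spondins protect the receptors from removal. WNT signalling patterns the early embryo and drives the primitive streak, and primed stem cells are often cultured with it held down.

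Total counts on genes ranged from 44268717 to 102351560 per library, and the highest total belonged to line D in feeder-free conditions, above 51320214 or fewer in the rest of that condition. A level is given as CPM, the usual depth-adjusted count, with library sizes scaled by TMM (trimmed mean of M-values). Counts were raw and gene models carried no transcript length, so levels are compared between libraries and not between genes. Whether reads or pairs were counted is not stated, and 67.7 to 73.6 percent of counts from 1 to 50 were even, so a count of 2 may stand for a single fragment. The stem cell markers were present in all libraries, with a summed level of 9 listed genes of 4211 to 4674 CPM on MEF and 3751 to 3935 CPM in feeder-free conditions, although DPPA4 stayed under 0.5 CPM throughout.

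Of the 48 genes, 35 had enough counts to be tested and 13 did not. The 13 were WNT1, WNT2, WNT4, WNT8A, WNT9B, WNT10B, DKK1, DKK2, DKK4, WIF1, RSPO2, RSPO3 and RSPO4, and no count of any of them exceeded 46. DKK1, an antagonist that is itself a β-catenin target, had 2 counts in the feeder-free library of line A, 3 in that of line C and 0 in the other 6. WNT1 had 2 counts in the MEF library of line D and 0 elsewhere, and WNT10B had 6 counts in each of 2 feeder-free libraries and 0 in 6. A count of 0 allows up to 3 counts, which is 0.0720 CPM in the shallowest library and 0.0293 CPM in the deepest, a limit that covers counting error only. It takes each count as a separate fragment, and would be higher if a fragment gave 2 counts. Among the tested genes FZD2, FZD5, FZD7, FZD3 and SFRP1 had over 80 CPM in each of the 8 libraries. Of the 19 ligands, WNT5A was the only one with over 10 CPM in each library. Both cuts are on CPM that takes no account of transcript length, so they do not rank the genes.

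**Figure D1:**
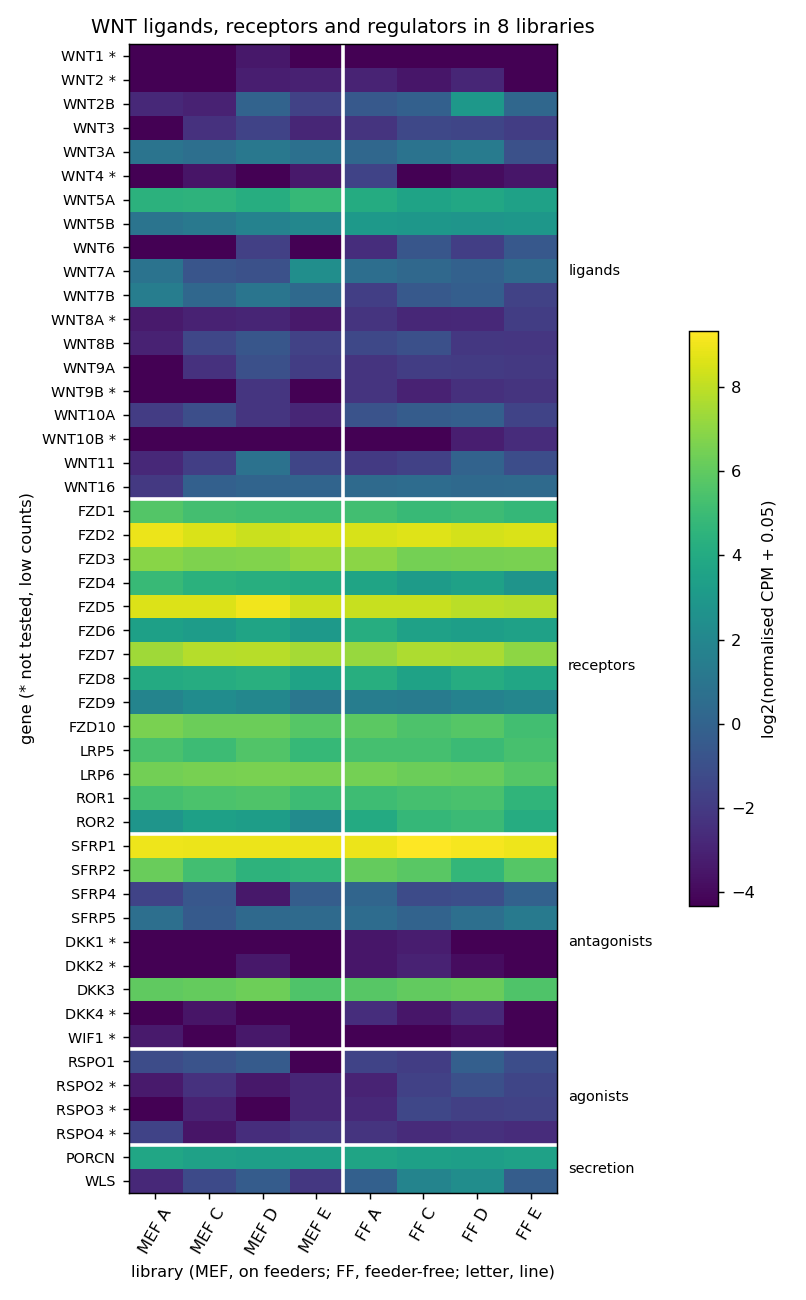
Level of each of the 48 WNT genes (rows, by role) in the 8 libraries (columns, 4 on MEF and 4 feeder-free, FF), as log2 of normalised CPM plus 0.05; colours compare libraries within a row, since levels are not per length. The 13 genes with a star were not tested, and the rows of WNT5B, ROR2 and WLS are brighter in all 4 feeder-free columns.

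Culture in feeder-free conditions was compared with culture on MEF to ask which WNT genes move when feeders are withdrawn. With condition alone in the model, 2 of the 35 tested genes were called, by an adjusted P-value under 0.05 with at least a 1.5-fold difference. Both, WNT5B and ROR2, were higher in feeder-free conditions. Over all 15744 genes tested the share called was 1.73 percent, with 0.724 percent higher and 1.00 percent lower. The smallest adjusted P-value of any gene in this fit was 0.0196, and 10 of the 35 had an unadjusted P-value under 0.05, 5 higher and 5 lower, against 21.6 percent of all genes (10.2 percent higher and 11.4 percent lower). The same lines were grown in both conditions, and with line as a paired term (replicate block) 9 of the 35 passed, 4 higher and 5 lower, against 10 percent of all genes (5.52 percent higher and 4.53 percent lower). WNT5B, WNT2B, ROR2 and WLS rose in this paired fit, and WNT5A, WNT7B, FZD4, FZD5 and FZD10 fell. The median log2 fold change of the 35 was -0.08, beside 0.01 over all genes tested. The CPM of the conditions did not overlap for 8 of the 35, 4 in each direction, and for 14.6 percent of all genes (6.21 percent higher and 8.36 percent lower). All 4 lines had more in feeder-free conditions for 7 of the 35 and less for 8, where the shares over all genes were 20.2 and 20.7 percent.

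**Figure D2:**
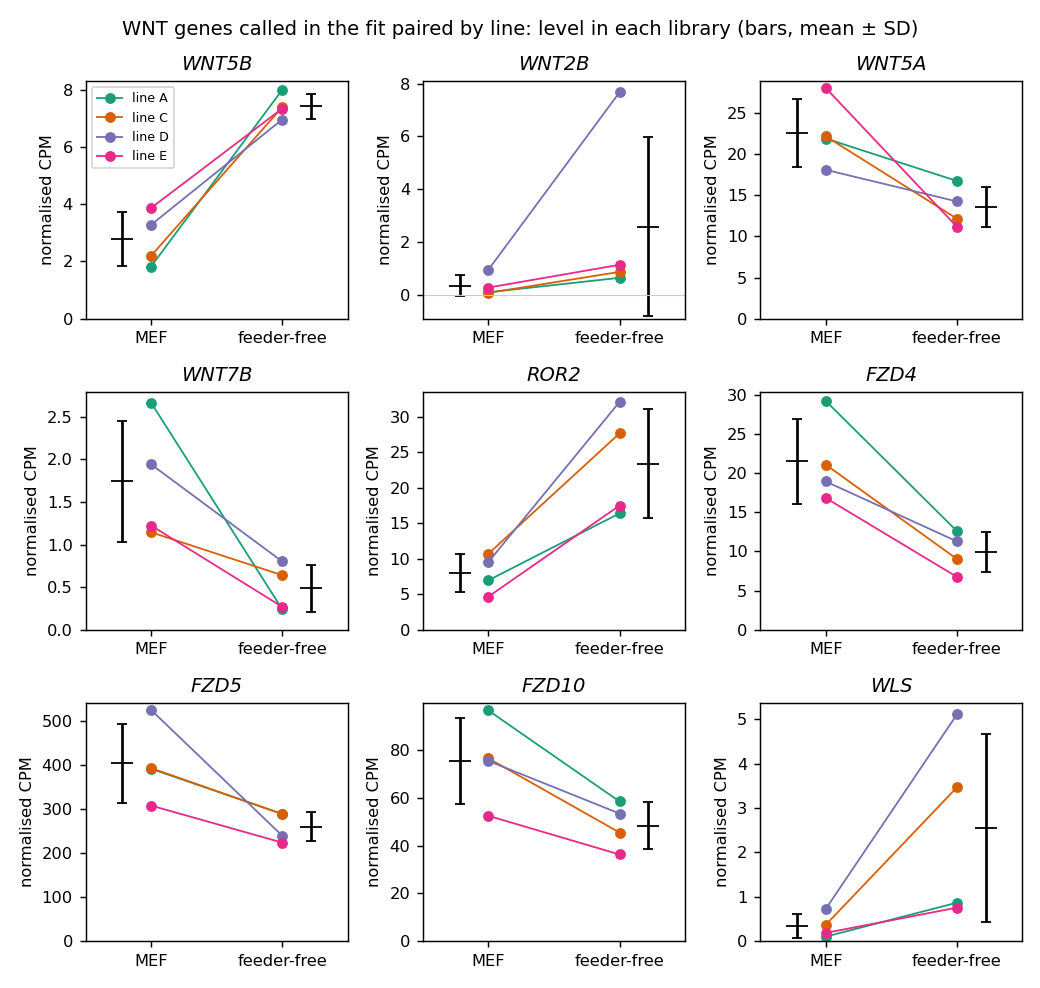
Normalised CPM of the 9 WNT genes called in the fit paired by line, on MEF and in feeder-free conditions; each coloured line joins the 2 libraries of a cell line, and the black bars give mean ± SD (n = 4). WNT5B, ROR2, WLS and WNT2B go up in all 4 lines, WNT5A, WNT7B, FZD4, FZD5 and FZD10 go down in all 4.

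WNT5B and WNT5A, close relatives that both signal without β-catenin through ROR receptors, went opposite ways in the paired fit. WNT5B, which spans 108071491 to 108153131 on chromosome 5 (build ARS-UCD2.0), had 1.82, 2.20, 3.28 and 3.87 CPM on MEF in lines A, C, D and E, and 8.01, 7.40, 6.97 and 7.35 CPM in feeder-free conditions. The feeder-free values lay close together and above all MEF values. The MEF mean was 2.79 ± 0.949 CPM (SD, n = 4) and the feeder-free mean 7.43 ± 0.429 CPM (SD, n = 4), so WNT5B rose by a log2 fold change of 1.41 (SE, standard error, of 0.27 and edgeR quasi-likelihood adjusted p = 0.0403). It rose 2.66-fold in that fit and 2.76-fold in the paired fit. WNT5B overlaps FBXL14, a gene of a ubiquitin ligase, and no source used here says on which strand reads were counted. FBXL14 itself had 43.6 CPM on MEF and 46.8 CPM without feeders, at an adjusted p of 0.730 from the same edgeR test.

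WNT5A, on chromosome 22 from 45540765 to 45559683, had 21.9, 22.2, 18.1 and 28.1 CPM on MEF in lines A, C, D and E, and 16.8, 12.2, 14.3 and 11.2 CPM in feeder-free conditions. Every feeder-free value was under every MEF value, with the widest step in line E. The log2 fold change was -0.73 (SE 0.19, edgeR adjusted p = 0.0678) without pairing, and WNT5A fell 1.66-fold in the paired fit, with an adjusted p of 0.0264. It overlaps LOC104975559, whose log2 fold change was -1.08 (edgeR adjusted p = 0.259) without pairing and -1.24 (edgeR adjusted p = 0.0632) with it. As a description, with no test, the ratio of WNT5B to WNT5A counts, which takes no account of transcript length, was 0.0832 to 0.181 on MEF and 0.478 to 0.658 in feeder-free conditions.

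WNT2B, a ligand known from mesenchyme, was low on MEF and passed as higher in the paired fit alone. It had 0.0960, 0.0726, 0.950 and 0.272 CPM on MEF in lines A, C, D and E, and 0.642, 0.866, 7.67 and 1.14 CPM in feeder-free conditions. Line D was the highest in both conditions, and its feeder-free library held 785 counts where the other 3 held 32 to 59. The rise was thus seen in 4 of 4 lines while the ranges overlapped. The log2 fold change was 2.89 (SE 1.05, edgeR adjusted p = 0.152) without pairing and 2.80 (SE 0.39, edgeR adjusted p = 0.00266) with it. Leaving out 1 library moved the unpaired log2 fold change to between 1.33, without feeder-free line D, and 4.14, without line D on MEF. WNT2B lies on chromosome 3 from 30790880 to 30805442 and overlaps ST7L. ST7L had 11.8 and 11.1 CPM and a log2 fold change of -0.08 without and -0.13 with pairing.

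WNT7B, a ligand of epithelia, was lower in 4 of 4 lines. It had 2.67, 1.14, 1.94 and 1.22 CPM on MEF in lines A, C, D and E, and 0.241, 0.640, 0.801 and 0.269 CPM in feeder-free conditions. The groups did not overlap, and line A gave the widest step. Unpaired, the log2 fold change was -1.82 (SE 0.50, edgeR adjusted p = 0.0816), and WNT7B fell 3.65-fold in the paired fit, at an adjusted p of 0.0297. WNT7B lies on chromosome 5 from 116230305 to 116284775 and overlaps no other annotated gene. It had 12 to 111 counts per library and did not pass in the paired fit when any one line was left out.

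The other 9 tested ligands passed in neither fit. WNT10A had an unadjusted P-value of 0.0380 in edgeR's unpaired test, with 0.0906 to 0.436 CPM on MEF and 0.289 to 0.811 CPM in feeder-free conditions, higher in 4 of 4 lines at an adjusted p of 0.201. WNT6, which lies 7119 bases from WNT10A, had 0 counts in the MEF libraries of lines A, C and E and 12 in that of line D, and 6, 31, 25 and 33 counts in feeder-free lines A, C, D and E. Its adjusted p was 0.251 in the unpaired and 0.0980 in the paired edgeR fit. WNT16 and WNT3 were higher in 4 of 4 lines, with log2 fold changes of 0.74 and 0.97, and their adjusted p in the unpaired edgeR fit were 0.411 and 0.531. WNT3A, the ligand most used to switch on β-catenin, had 1.54 to 2.19 CPM on MEF and 0.481 to 2.47 CPM in feeder-free conditions, with the libraries of the 2 conditions mixed. WNT3A and its neighbour WNT9A, 27645 bases apart, had log2 fold changes of -0.28 and -0.08. The neighbouring pairs WNT9B with WNT3 and WNT1 with WNT10B each held at least 1 gene too low to test.

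In WNT7A and WNT11 a single line stood above the others. WNT7A had 5.21 CPM in line E on MEF, with 0.475 to 1.78 CPM in the other 3, and 0.899 to 1.47 CPM in feeder-free conditions. WNT11 was highest in line D in both conditions, with 1.73 CPM on MEF and 0.967 CPM in feeder-free conditions, while the other 6 libraries had 0.0960 to 0.423 CPM. Adjusted p were 0.600 for WNT7A and 0.870 for WNT11 in edgeR's unpaired test. WNT8B had 3 to 28 counts per library and a log2 fold change of -0.13. The signs of WNT3A, WNT7A, WNT8B, WNT9A and WNT11 each turned in at least 1 of the settings examined.

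Among the receptors, ROR2 rose, and 3 of the 10 Frizzleds fell in the paired fit, in which 4.53 percent of all genes were called lower. ROR2, a tyrosine kinase-like receptor for WNT5A and WNT5B, lies on chromosome 8 from 85905286 to 86141522 and overlaps no other annotated gene. It had 6.96, 10.7, 9.54 and 4.67 CPM on MEF in lines A, C, D and E, and 16.4, 27.6, 32.1 and 17.5 CPM in feeder-free conditions. The lowest feeder-free library was above the highest MEF library. Its MEF mean was 7.97 ± 2.70 CPM (SD, n = 4) and its feeder-free mean 23.4 ± 7.69 CPM (SD, n = 4), so ROR2 rose by a log2 fold change of 1.55 (SE 0.31, edgeR adjusted p = 0.0451), or 2.93-fold. With pairing the log2 fold change was 1.56 and its standard error 0.16 (adjusted p = 0.000834 from the paired edgeR fit), and the log2 ratio ran from 1.23 in line A to 1.90 in line E. ROR1, its nearest relative, had 33.0 to 46.6 CPM on MEF and 24.1 to 42.8 CPM in feeder-free conditions. Without pairing its log2 fold change was -0.21, with a 95 percent interval of -0.64 to 0.21. With pairing ROR1 was at -0.23 (SE 0.12, edgeR adjusted p = 0.201), and it was lower in 4 of 4 lines.

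FZD4, a Frizzled that can also serve the ligand Norrin, had 29.2, 21.1, 18.9 and 16.8 CPM on MEF in lines A, C, D and E, and 12.6, 9.04, 11.3 and 6.75 CPM in feeder-free conditions. All feeder-free values were under all MEF values. Unpaired, the log2 fold change was -1.12 (SE 0.24, edgeR adjusted p = 0.0509), just outside the threshold, and FZD4 fell 2.18-fold in the paired fit, where the adjusted p was 0.00227. Its log2 ratio lay between -1.31 and -0.74 over the 4 lines. FZD4 lies on chromosome 29 from 8618154 to 8623002.

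FZD5, on chromosome 2 from 96034762 to 96042092, had 392, 394, 526 and 308 CPM on MEF in lines A, C, D and E, and 289, 289, 240 and 224 CPM in feeder-free conditions. The groups did not overlap. Its log2 fold change was -0.64 (SE 0.18, edgeR adjusted p = 0.0824), and FZD5 fell 1.54-fold in the paired fit at an adjusted p of 0.0166. FZD10, on chromosome 17 from 46932746 to 46934705, had 52.6 to 96.8 CPM on MEF and 36.3 to 58.6 CPM in feeder-free conditions. Its ranges overlapped, yet each line had less in feeder-free conditions, with log2 ratios from -0.75 to -0.50, and it fell 1.54-fold in the paired fit at an adjusted p of 0.00716, with 0.116 in the unpaired edgeR fit.

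The other 7 Frizzleds passed in neither fit, and 6 of the 7 had a log2 fold change under 0, although that of FZD2 was above 0 with another scaling or with pairing, and those of FZD8 and FZD9 were when 1 line was left out of the paired fit. FZD2 had 306 to 487 CPM on MEF and 348 to 409 CPM in feeder-free conditions, with a log2 fold change of -0.01 and a 95 percent interval of -0.36 to 0.35. FZD1 and FZD7 were lower in 4 of 4 lines, with log2 fold changes of -0.31 and -0.24, and their adjusted p in the unpaired edgeR fit were 0.294 and 0.474. FZD3, FZD8 and FZD9 had log2 fold changes of -0.23, -0.12 and -0.21. FZD6 was the one Frizzled above 0, at 0.31, with 17.9 CPM in feeder-free line A and 10.1 to 11.4 CPM in the other 3. The co-receptors LRP5 and LRP6 had log2 fold changes of -0.01, a sign that also turned with scaling, and -0.33. LRP5 had 27.8 to 48.4 CPM on MEF and 31.6 to 41.4 CPM in feeder-free conditions, and LRP6 had 85.4 to 97.0 CPM and 53.8 to 88.4 CPM. The adjusted p of LRP6 was 0.248 in the unpaired and 0.115 in the paired edgeR fit.

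**Figure D3:**
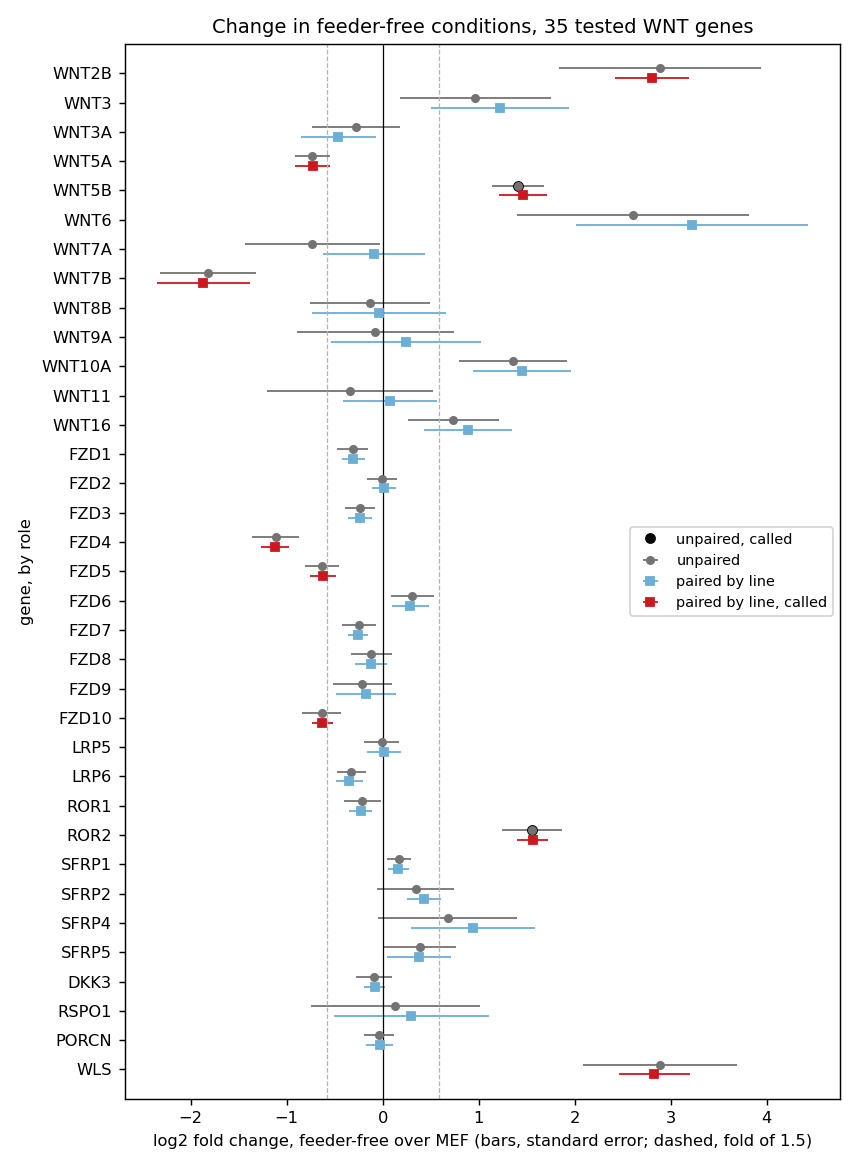
Log2 fold change (feeder-free over MEF) of the 35 tested WNT genes with its standard error, without pairing (circles; black where called) and paired by line (squares; red where called). Pairing moves few estimates but narrows the bars of WNT2B, WLS, ROR2, FZD4 and FZD10.

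No secreted antagonist passed in either fit. SFRP1, which binds WNT ligands and Frizzleds, had 481 to 504 CPM on MEF and 488 to 640 CPM in feeder-free conditions, with a log2 fold change of 0.17 and a 95 percent interval of -0.11 to 0.45. SFRP2 varied between lines on MEF, with 75.0 CPM in line A, 36.8 in line C, 23.0 in line D and 25.6 in line E, and had 67.9, 57.5, 26.5 and 51.9 CPM in feeder-free conditions. It was higher in 3 of 4 lines, and its adjusted p was 0.679 without and 0.127 with pairing in edgeR. SFRP4 and SFRP5 had at most 1.04 and 2.31 CPM, and log2 fold changes of 0.68 and 0.39. DKK3, a DKK relative that is not known to block LRP5 or LRP6 as the others do, had 47.4 to 79.1 CPM on MEF and 48.1 to 74.4 CPM in feeder-free conditions, with a log2 fold change of -0.09 and a 95 percent interval of -0.51 to 0.34.

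The R-spondins had low counts, at most 85 in any library. RSPO1, the only one tested, had 0 to 0.702 CPM on MEF and 0.226 to 0.831 CPM in feeder-free conditions, at an adjusted p of 0.956 from edgeR's test. RSPO3 had 0, 4, 0 and 4 counts on MEF in lines A, C, D and E, and 5, 17, 26 and 14 counts in feeder-free conditions. RSPO2 had 2 to 8 counts on MEF and 4 to 46 in feeder-free conditions, and RSPO4 had 2 to 12 and 6 to 14. RSPO2, RSPO3 and RSPO4 got no test.

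Of the 2 genes of ligand export, WLS passed as higher in the paired fit and PORCN passed in neither fit. WLS, on chromosome 3 from 77070875 to 77187329, had 4, 20, 35 and 8 counts on MEF in lines A, C, D and E, and 43, 184, 523 and 39 counts in feeder-free conditions. In CPM these were 0.0960, 0.363, 0.723 and 0.181 on MEF, and 0.863, 3.47, 5.11 and 0.750 in feeder-free conditions. The groups did not overlap, and lines C and D were the highest in each condition. The log2 fold change was 2.89 (SE 0.80, edgeR adjusted p = 0.0829) without pairing, and WLS rose 7.11-fold in the paired fit (adjusted p = 0.00220 from edgeR). PORCN had 10.2 to 13.3 CPM on MEF and 10.01 to 12.5 CPM in feeder-free culture. Its log2 fold change was -0.04 (above 0 with no scaling beyond library size) with a 95 percent interval of -0.38 to 0.31.

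Fibroblast markers were read beside these genes. Summed over 25 fibroblast genes, the level was 1351, 1541, 1511 and 1305 CPM on MEF in lines A, C, D and E, and 999, 2095, 2615 and 1092 CPM in feeder-free conditions. ROR2 had the same order of lines as this sum in both conditions, and for WLS lines C and D stood above A and E in both. WNT5B and WNT2B, which also rose in the paired fit, shared the order of the sum in neither condition. In feeder-free conditions WNT5B was highest in line A, at 8.01 CPM, and lowest in line D, at 6.97 CPM. These orders were compared after the values were seen. The sum was carried largely by COL1A1, MMP2 and FSTL1. They had 292, 441 and 355 CPM in line A on MEF, and 1033, 434 and 469 CPM in feeder-free line D. Between conditions the sum was lower without feeders in lines A and E, the lines in which ROR2 had log2 ratios of 1.23 and 1.90 and WLS of 2.77 and 1.86. Of the 25, 22 were tested and 0 passed without pairing, against 1.73 percent of all genes. An unadjusted P-value under 0.05 was found for 5 of the 22, against 21.6 percent of all genes. With pairing COL3A1, POSTN and ACTA2 passed as higher and COL1A2 and PRRX1 as lower. Over all genes 5.52 percent were called higher and 4.53 percent lower with pairing. ACTA2 had 2.75 CPM in line A and 297 CPM in line D in feeder-free conditions. COL1A2 and PRRX1 had 0 to 0.606 CPM in feeder-free conditions and 0.680 to 4.65 CPM on MEF, and TWIST2 was at 0 counts in all 4 feeder-free libraries. The part of fibroblast-like cells or of reads from mouse feeders in the WNT genes was not tested. In bulk RNA, fewer cells that express a gene and less RNA per cell cannot be told apart. Among lineage markers, EOMES and KRT7 passed as higher in the paired fit, whereas CDX2 had 0 counts in all libraries and TBXT at most 0.231 CPM. No endoderm, neural or stem cell marker of the lists passed in either fit. At an unadjusted P-value under 0.05 in edgeR's unpaired fit, 5 of 9 tested stem cell markers were lower and 1, UTF1, was higher. Of 5 tested neural markers 3 were lower at that cut and 0 higher. Over all genes 11.4 percent were lower and 10.2 percent higher. Below the 1.5-fold limit, the stem cell marker SALL4 was 1.49-fold lower at an adjusted p of 0.0426 in edgeR's unpaired fit and 0.00614 in the paired one. SOX2, LIN28B and the neural marker TUBB3 were also lower in the paired edgeR fit, at adjusted p of 0.0436, 0.0456 and 0.0392. The stem cell marker PRDM14 was higher in that fit, with a log2 fold change of 0.37 at an adjusted p of 0.0481. UTF1 had a log2 fold change of 0.62 in it, at an adjusted p of 0.0519. SALL4, SOX2, LIN28B, TUBB3, PRDM14 and UTF1 are named after their values were seen.

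The calls of WNT5B, ROR2, FZD4, WLS and WNT2B rested least on a single line. Each of the 5 passed in the paired fit without any one of the 4 lines, whereas FZD10 passed in 3 of these 4 fits, FZD5 and WNT5A in 2 and WNT7B in 0. Without pairing, WNT5B and ROR2 lost their calls on leaving out any single library except feeder-free line A, with an adjusted p of up to 0.123 for WNT5B and 0.117 for ROR2 from edgeR's test. Their log2 fold changes over all 8 fits with 1 library left out were 1.25 to 1.61 for WNT5B and 1.36 to 1.73 for ROR2, and at most 6 genes of the whole table were called in any of the 7 fits that lost them. With feeder-free line A left out, FZD4 passed beside them. The unpaired call of ROR2 was also lost with no scaling beyond library size and with limma-voom, where WNT5B kept its own. The direction of all 9 was the same in each setting examined.

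**Figure D4:**
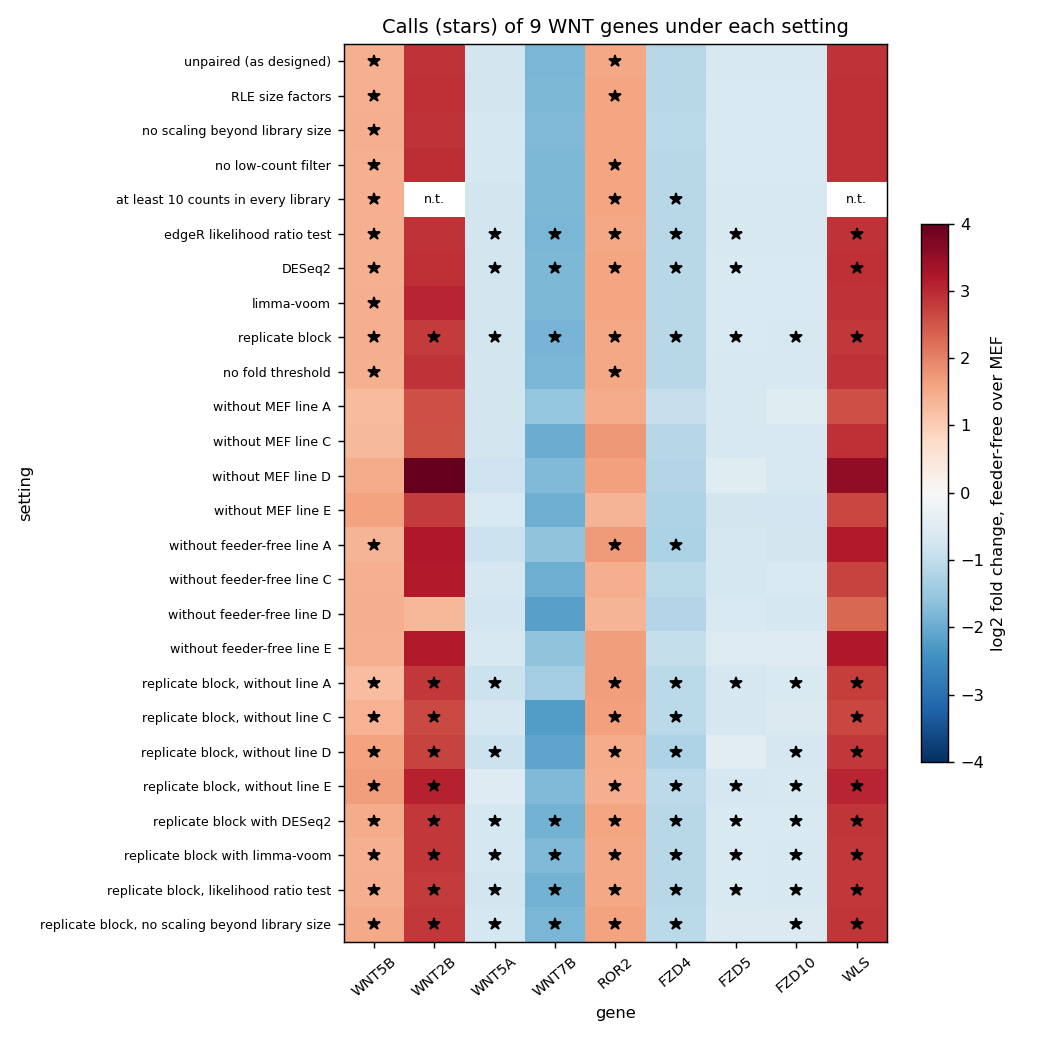
Log2 fold change (colour; red, higher in feeder-free conditions) of the 9 WNT genes called in the paired fit, under the design as set and each alternative; stars mark calls and n.t. marks genes not tested under a filter. WNT5B and ROR2 carry stars in most rows, WNT2B in the paired rows alone, and no column changes colour.

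For 4 lists of other WNT pathway genes, values were read from the same fit, as a frame for the ligands and receptors. Of 37 genes of signal transduction, all tested, 3 passed as lower without pairing and 0 as higher, where 1.00 and 0.724 percent of all genes did. They were GSK3B, a kinase that marks β-catenin for destruction, TCF7L2, a factor that binds DNA with β-catenin, and TLE3, a co-repressor. Their log2 fold changes were -0.65, -0.81 and -0.62. The call of TLE3 was lost with no scaling beyond library size (edgeR adjusted p = 0.0522) and with no low-count filter (edgeR adjusted p = 0.0517). TNKS, 1 of the 2 tankyrases that IWR-1 inhibits, and PYGO1, a β-catenin co-activator, also fell in the paired fit, and passed in 2 and 1 of its 4 fits with a line left out. With pairing 5 of the 37 were called lower and 0 higher, against 4.53 and 5.52 percent of all genes. TNKS2, the other tankyrase and named here after its value was seen, had a log2 fold change of 0.02. The median of the 37 was -0.25, beside 0.01 over all genes.

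Of 23 tested surface regulators outside the ligand and receptor families, 0 passed without pairing and 7 had an unadjusted P-value under 0.05, against 21.6 percent of all genes. With pairing LGR4, the R-spondin receptor, KREMEN1, a partner of DKK1, and GPC6, a heparan sulfate proteoglycan, fell, at log2 fold changes of -0.83, -0.78 and -0.86. These were 3 of the 23, with 0 called higher, against 4.53 percent lower and 5.52 percent higher over all genes. LGR4 had 85.1 CPM in feeder-free line A and 45.0 to 51.0 CPM in the other 3. Of 32 tested genes of planar polarity and calcium signalling, 1 passed as lower without pairing and 0 as higher. Over all genes 1.00 and 0.724 percent did. The gene was VANGL2, a core polarity protein that works with ROR2. It had a mean of 93.7 ± 10.9 CPM (SD, n = 4) for MEF and 59.9 ± 4.40 CPM (SD, n = 4) for feeder-free culture, at an adjusted p of 0.0392 from edgeR's test. Its call was lost with no scaling beyond library size (edgeR adjusted p = 0.0525) and with no low-count filter (edgeR adjusted p = 0.0517). With pairing DACT1 and DACT2, which bind Dishevelled, also fell and PLCB4, a phospholipase, rose, but with a line left out DACT1 passed in 1 of 4 fits and DACT2 and PLCB4 in 2. Of the 32, 3 were thus called lower and 1 higher with pairing, against 4.53 and 5.52 percent of all genes.

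Of 22 tested target genes of β-catenin and TCF, 0 passed without pairing, 7 had an unadjusted P-value under 0.05 (21.6 percent over all genes), and the median log2 fold change was -0.35. With pairing MYC and CDX4 passed as higher and CCND1 and SP8 as lower, where 5.52 and 4.53 percent of all genes did. When a line was left out of the paired fit, SP8 passed in 4 of 4 fits, MYC and CCND1 in 1 and CDX4 in 0. AXIN2, the target most used as a readout and named here after its value was seen, had 3.94 CPM on MEF and 2.75 CPM in feeder-free conditions, with a log2 fold change of -0.52 at an adjusted p of 0.593 without pairing and 0.183 with pairing in edgeR.

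**Figure D5:**
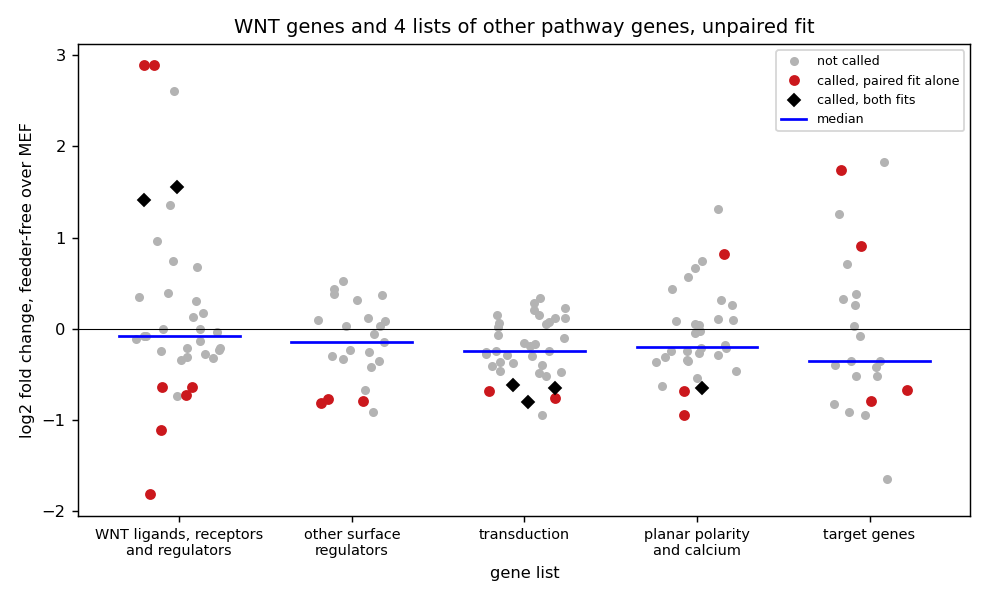
Log2 fold change (feeder-free over MEF, unpaired fit) of the tested WNT ligands, receptors and regulators and of 4 lists of other pathway genes; each point is a gene, blue bars are medians, black diamonds are genes called in both fits and red points genes called in the paired fit alone. The called transduction genes all lie below 0, while the called ligands and receptors lie on both sides.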

How the data were processed

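The deposited file held raw counts for each gene in 8 bulk RNA-seq libraries. Per the study's methods and the submitters' processing notes, reads were trimmed (Trimmomatic), aligned to ARS-UCD2.0 (STAR), freed of optical duplicates (Picard) and of low-quality alignments (samtools) and counted with featureCounts (Subread 1.6.2). Strand is not given in the sources used here. The methods also describe removing reads of a pure MEF sample that aligned to the bovine genome, to adjust the counts of bESCs on MEF. That sample was not analysed here. Whether the deposited counts come before or after this step was not determined, and its part in low levels on MEF was not tested. Of 32640 rows, 3 without values were left out, and 0 sample columns were unused.

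Counts were fitted with edgeR 4.0.16 in R 4.3.3 (filterByExpr, TMM, glmQLFit, glmQLFTest) with condition as the only term. P-values of 15744 genes were adjusted by Benjamini and Hochberg's method, and a call needed an adjusted value under 0.05 and a 1.5-fold difference. The standard error was the log2 fold change divided by the root of F. All 95 percent intervals are of the fit without pairing. Line letters pair the libraries, since the same lines were used. Deviations from the condition mean correlated at 0.421 to 0.664 within a line and at -0.523 to 0.249 between lines. The deviations of the 4 lines sum to 0, so values above 0 within lines draw those between lines down. Tests used n = 4 per condition. Limma 3.58.1 and DESeq2 1.42.0 served as alternatives. Coordinates came from RefSeq, where all 48 genes matched.

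Members, lists and tests were chosen with earlier results of these data known. The genes described in full were those called in either fit and those at an unadjusted P-value under 0.05 in 4 of 4 lines. The rule also named the highest genes of each role per length. Transcript lengths were not used here, so CPM was used and genes were not ranked. Of the pathway lists, genes called in either fit were named.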

Additional observations from a re-analysis of the deposited data

Results flagged for a closer look

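In 13 of 116 groups of 4 libraries (tested WNT genes and the called list and marker genes), 1 library lay far from the other 3. The rule was a gap to the nearest library above a set share of the range of CPM. A rate of 1 in 20 would give 5.8, but it holds for independent, normally distributed values. CPM near 0 and genes picked as called do not meet this, so 13 is not read as an excess. Line D was the highest on MEF for WNT11, at 1.73 CPM with 0.0960 to 0.317 CPM in the others, and for WNT6, at 0.248 CPM with 0 in the others. It was also the highest on MEF for POSTN, at 0.661 CPM, and the lowest for DACT1, at 10.2 CPM with 13.7 to 14.3 CPM in the others. In feeder-free conditions line D was the highest for WNT2B, at 7.67 CPM with 0.642 to 1.14 CPM in the others, and for PRRX1, at 0.606 CPM. Line A was the highest in feeder-free conditions for FZD3, at 124.6 CPM, for FZD6, at 17.9 CPM, for LGR4, at 85.1 CPM, and for PYGO1, at 4.63 CPM. On MEF line A was the lowest for WNT16, at 0.192 CPM with 0.872 to 0.997 CPM in the others, and the highest for GPC6, at 72.4 CPM, and KRT7, at 36.7 CPM.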

How the results depend on the processing

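The 9 WNT genes called with or without pairing kept their direction under all alternatives, and the calls were what moved. WNT genes called higher and lower numbered 2 and 0 as designed. They numbered 1 and 0 with no scaling beyond library size (ROR2 lost, edgeR adjusted p = 0.0522) and with limma-voom (ROR2 lost). They numbered 2 and 1 with at least 10 counts in every library, and 3 and 4 with edgeR's likelihood ratio test and with DESeq2. The counts over all 15744 genes moved along, from 114 higher and 158 lower as designed to 448 and 389 with the likelihood ratio test, 695 and 517 with DESeq2 and 869 and 713 with the replicate block. With the replicate block they numbered 4 and 5. Further paired fits were chosen after seeing the data and gave 4 and 5 with DESeq2, 5 and 5 with limma-voom, 6 and 5 with the likelihood ratio test and 4 and 4 with no scaling. Leaving out replicates (1 library, or both of a line in the paired fit) gave 0 to 5 higher and 0 to 4 lower. Removing 1 library left 0 called among the 35 to 37 tested in 7 of 8 fits, with 8 to 12 at an unadjusted P-value under 0.05. In the same 7 fits 0 to 1 genes of the whole table were called higher and 0 to 5 lower.

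Surface regulators called went from 0 to 1 with the filter of 10 counts, to 3 with DESeq2, the likelihood ratio test and each replicate block, and 0 to 3 without a replicate. Transduction genes called went from 3 to 2 with no scaling or no low-count filter, and to 4 with the likelihood ratio test. They went to 5 with DESeq2 and with the replicate block, run with edgeR (both tests), DESeq2 or limma-voom, and 0 to 6 without a replicate. Planar polarity and calcium genes called went from 1 to 0 with no scaling or no low-count filter, 3 with DESeq2, 4 with the replicate block in edgeR (with or without scaling), 5 with the block in DESeq2 or limma-voom, 6 with the block in the likelihood ratio test, and 0 to 5 without a replicate. Target genes called went from 0 to 4 with the block in edgeR (with or without scaling), 5 with the block in DESeq2 or limma-voom, 6 in the likelihood ratio test, and 0 to 3 without a replicate.

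Of 1260 values of single genes over all alternatives 68 changed sign, none of a called gene, and the cause was not tested. The log2 fold change of FZD2 became 0.0038 with RLE size factors and with DESeq2, 0.041 with no scaling, 0.012 with no low-count filter, 0.0024 with the filter of 10 counts, 0.013 with limma-voom, and with the block 0.013 (edgeR, both tests, and limma-voom), 0.024 (DESeq2) and 0.054 (no scaling). That of LRP5 became 0.0024 with RLE, 0.032 with no scaling, 0.012 with no filter, 0.0021 with the filter of 10 counts, 0.0023 with DESeq2, 0.0099 with limma-voom, and with the block 0.016, 0.017 (likelihood ratio), 0.028 (DESeq2) and 0.058 (no scaling). PORCN became 0.0083 with no scaling and 0.0079 with that and the block. WNT9A became 0.71 with limma-voom, and with the block 0.24, 0.52 (DESeq2), 0.17 (limma-voom), 0.29 (likelihood ratio) and 0.28 (no scaling). WNT11 became 0.29 with limma-voom, and with the block 0.077, 0.12 (DESeq2), 0.061 (likelihood ratio) and 0.11 (no scaling). WNT8B became 0.027 with the block in DESeq2. Without a replicate the log2 fold change ran from -0.21 to 0.02 for DKK3, -0.094 to 0.16 for FZD2, -0.25 to 0.056 for FZD8, -0.51 to 0.11 for FZD9, -0.16 to 0.23 for LRP5, -0.10 to 0.047 for PORCN, -0.43 to 0.90 for RSPO1, -1.01 to 1.11 for WNT11, -0.70 to 0.02 for WNT3A, -1.06 to 0.57 for WNT7A, -0.61 to 0.58 for WNT8B and -0.48 to 0.64 for WNT9A.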
